A study of Mus musculus with 6 samples.

Results

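The S100 genes described here are 10 members of a family of small calcium-binding proteins: S100a1, S100a4, S100a6, S100a8, S100a9, S100a10, S100a11, S100a13, S100a16 and S100b. They were taken by symbol from a count table of 21878 genes, in which 18 genes belong to the family, and all 10 passed the filter on low counts. RNA had been sequenced from Achilles tendon tissue of mice, in 3 libraries labelled sham (titled Control) and 3 labelled Achilles tendon amputation (titled HO). The series title places the comparison in a study of KLF2, PPARγ and mitochondrial dysfunction in heterotopic ossification after trauma, the formation of bone outside the skeleton. The labels give no strain, genotype, age, sex or time after surgery. Nor do they state that each library is a different animal, and the p-values therefore refer to the spread among these libraries alone, and that spread may be technical. Libraries are called sham 1 to 3 and amputation 1 to 3 after the numbers in their titles.

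S100 proteins carry EF-hand calcium-binding loops and mostly work as dimers. On binding calcium they open a surface that grips a target protein, and several members are also released from cells and act on surface receptors such as RAGE and TLR4. S100A10 is the exception that has lost calcium binding and is held in its active form by annexin A2. S100A1 is best known from striated muscle, S100A4 and S100A6 from fibroblasts and other mesenchymal cells, S100A8 and S100A9 from neutrophils and monocytes, and S100B from glia, Schwann cells, chondrocytes and adipocytes.

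Of the 10 genes, 9 lie in a cluster on chromosome 3 in GRCm38.p6, between positions 90511034 and 93564645, a span of 3.05 Mb that also holds many genes of the skin barrier. S100b lies alone on chromosome 10 at 76253836 to 76261319. S100a1 (chromosome 3, 90511034 to 90514330, minus strand) and S100a13 (90514233 to 90524581, plus strand) stand head to head. Between the start of S100a1 in GENCODE and the transcript start of S100a13 at 90514435 there are 42 bases. They are shown because, by these starts, transcripts of both genes begin at the edges of this interval and run away from each other. The RefSeq record of S100a1 ends before the interval, while that of S100a13 begins before it, so that both records overlap outside it. The bases are given on the plus strand, from RefSeq's GRCm38.p6 promoter table:

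S100a1 to S100a13, chr3:90514393-90514434: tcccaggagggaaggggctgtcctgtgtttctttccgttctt

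S100a11 and S100a4 are shown as examples of a gene that rose and of one whose groups overlapped. The S100a11 stretch ends just before the first annotated exon, and the S100a4 stretch ends at the base before the start site. Capitals mark matches to the motifs searched, which were TATAAA (the TATA box), GGGCGG (a GC box), TGANTCA (AP-1), CAGCTG (an E-box), GGAATG (TEAD) and TTGCNNAA (C/EBP), on both strands:

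S100a11, chr3:93520246-93520487, plus strand: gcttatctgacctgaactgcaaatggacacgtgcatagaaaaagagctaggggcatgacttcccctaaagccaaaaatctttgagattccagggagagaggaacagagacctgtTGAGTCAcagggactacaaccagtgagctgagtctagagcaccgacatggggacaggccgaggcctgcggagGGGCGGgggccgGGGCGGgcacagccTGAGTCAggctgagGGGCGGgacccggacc

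S100a4, chr3:90603520-90603769, plus strand: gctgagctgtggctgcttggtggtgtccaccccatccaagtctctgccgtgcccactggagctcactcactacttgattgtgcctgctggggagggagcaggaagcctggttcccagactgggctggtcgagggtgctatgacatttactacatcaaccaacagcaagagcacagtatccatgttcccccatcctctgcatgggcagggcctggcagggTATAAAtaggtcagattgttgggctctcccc

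In S100a11, 2 AP-1 matches began 136 and 38 bases before the RefSeq start site and 3 GC-box matches 64, 52 and 24 bases before it. In S100a4, the TATA match began 31 bases before the start site. No 2 of these matches shared a base. The table held windows for 9 of the 10 genes, with 1 or more per gene. A match to AP-1 was found in 2 of the 9 genes, to the GC box in 3, to TATAAA in 2, to CAGCTG in 2, to C/EBP in 1 and to TEAD in 0. The AP-1 matches were in S100a11 and S100a16, and the GC-box matches in these and in S100a9, which was not called. S100a6 and S100a13, which rose like S100a11, had no match to any motif searched. Over all 32851 windows of 250 bases the shares with a match were 6.75% (AP-1), 32.7% (GC box), 12.4% (TATAAA), 13% (CAGCTG), 9.56% (C/EBP) and 12.6% (TEAD). These matches are letters in a window and show neither binding nor use.

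Libraries held 23916839 to 31346730 counts. The tendon markers Tnmd (44.5 to 78.2 CPM in sham, 456 to 1014 after amputation) and Scx (8.09 to 16.3, and 22.6 to 67.9) were present in every library. Levels are given as CPM, counts scaled to library size with TMM factors, unless FPKM is named. Skeletal muscle RNA was abundant and uneven. A list of 30 muscle fibre genes took 18.8% to 20.7% of counts in sham, and 1.57%, 0.521% and 14.4% in amputation 1, 2 and 3. Amputation 3 thus lay near the sham libraries in muscle RNA, and results that move with it are given with and without it. In bulk tissue, fewer cells of a type and less RNA per cell cannot be told apart.

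S100a6, S100a11, S100a10, S100a13 and S100a16 rose after amputation. The threshold was an adjusted p of 0.05 in the quasi-likelihood test of edgeR, with Benjamini-Hochberg adjustment across all 14561 genes tested. That is 5 of 10 higher, beside 20.4% of all tested genes. None of the 10 was lower in that test, beside 12.3% of all genes. At an unadjusted p under 0.05, 1 was lower, S100a1, and DESeq2, limma-voom and limma on log2(FPKM + 1) each called that 1 gene lower. Over all genes these alternatives called 2739, 2188 and 2205 lower, against 1789 in the main fit. The median log2 fold change was 0.76 over the 10 genes and -0.02 over all tested genes. The sham and amputation libraries did not overlap for 6 of the 10 genes, as for 54.8% of all tested genes. With the replicate number of the titles as a block, 6 were higher and 1 lower, beside 21.7% and 17.3% of all genes. Without amputation 3 the counts were also 6 and 1, beside 28.5% and 29.7%. With a covariate for muscle RNA (the list's mean log2 CPM), S100a6 and S100a11 were the 2 called higher, beside 11.9% of all genes. The covariate was 10.94 to 11.27 in sham and 7.62, 6.34 and 10.89 in amputation 1 to 3. It thus nearly followed group, and its fit leaned mostly on amputation 3 to separate the 2. Leaving out sham 1, 2 or 3 gave 2, 1 and 2 of the 10 higher, and leaving out amputation 1 or 2 gave 4 and 2, in fits that called 1091 to 1863 genes higher in all.

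**Figure D1:**
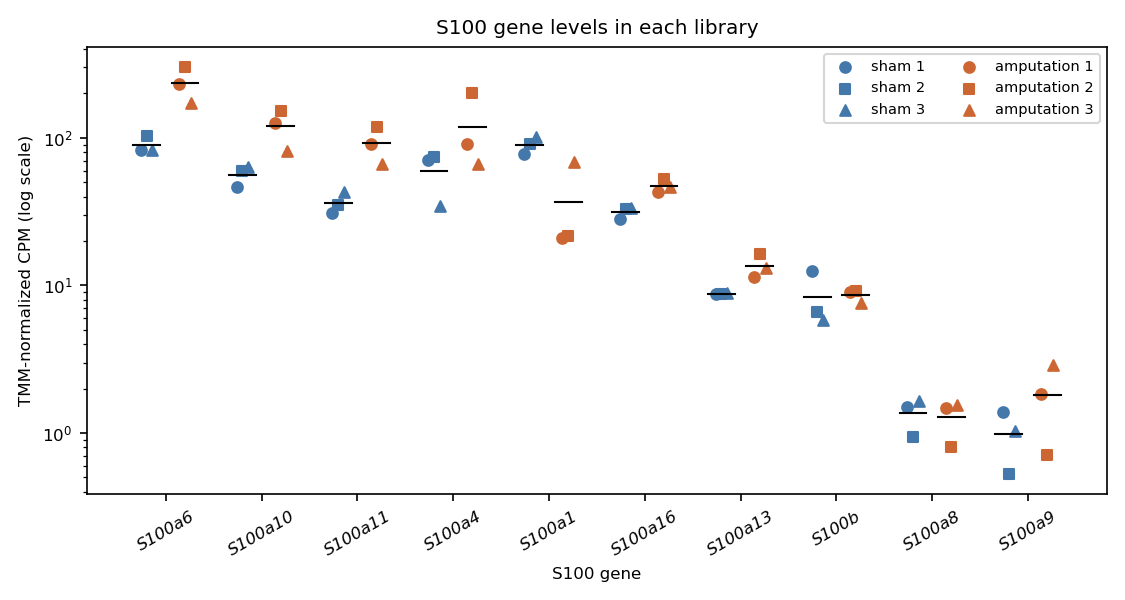
TMM-normalized CPM (log axis) of the 10 S100 genes in each of the 3 sham (blue) and 3 amputation (orange) libraries, with symbols for the replicate number and black bars for group means. S100a6, S100a10, S100a11, S100a13 and S100a16 have all amputation points above all sham points, S100a1 has them below, and S100a4, S100a8, S100a9 and S100b overlap.

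S100a6, S100a11 and S100a10 gave the largest increases. S100a6 codes for calcyclin, which is induced in growing cells. It stood at 82.6, 103 and 83.1 CPM in sham 1 to 3 and at 231, 300.4 and 172 CPM in amputation 1 to 3. The groups did not overlap, and amputation 3 was the lowest of its group. S100a6 rose by log2 1.39 ± 0.24 (SE, n = 3 per group; 95% interval 0.82 to 1.96), a 2.62-fold change (adjusted p = 0.00958, edgeR). It was called under all 17 alternative settings, with log2 values from 0.88 (muscle covariate) to 1.57 (without amputation 3).

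S100a11, also called calgizzarin, binds annexin A1 and acts in membrane repair and in keratinocyte growth control. Its levels were 31.2, 35.0 and 42.7 CPM in sham and 91.2, 118 and 66.7 CPM after amputation. Again amputation 3 was the lowest of its group and still lay above every sham library. The increase was log2 1.34 ± 0.24 (2.53-fold, adjusted p = 0.0105, edgeR, n = 3 per group), and it was called in 16 of 17 alternatives. The exception was the fit without sham 2 (log2 1.29, adjusted p = 0.0529). RefSeq lists a pseudogene, S100a11-ps, whose reads may not be told apart from those of S100a11.

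S100a10, or p11, forms a tetramer with annexin A2 that binds plasminogen and its activator at the cell surface. It was measured at 46.4, 59.3 and 63.3 CPM in sham and at 127, 151 and 81.6 CPM after amputation. All amputation libraries lay above all sham libraries. S100a10 rose by log2 1.09 ± 0.25 (2.13-fold, adjusted p = 0.0220, edgeR, n = 3 per group). The call rested on nearly every library: without sham 1, 2 or 3 the log2 value was 0.96, 1.10 and 1.14, and without amputation 1 or 2 it was 1.05 and 0.89, none of them called (adjusted p from 0.0597 to 0.0783). With the muscle covariate it was 0.51 and not called.

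S100a16 and S100a13 rose less, and their libraries varied less. S100a16, a widely expressed member known from adipocyte differentiation, stood at 28.1, 33.1 and 33.7 CPM in sham and 42.7, 52.7 and 46.5 CPM after amputation. It rose by log2 0.58 ± 0.13 (1.49-fold, adjusted p = 0.0215, edgeR, n = 3 per group). S100a13 takes part in the release of FGF1 and IL-1α, which lack a signal peptide. Its sham values were 8.78, 8.71 and 8.86 CPM, the narrowest spread of the 10 genes, and its amputation values 11.4, 16.3 and 13.2 CPM. S100a13 rose by log2 0.64 ± 0.17 (1.55-fold, adjusted p = 0.0311, edgeR). Both were called in 12 of 17 alternatives. Both lost the call without sham 1, 2 or 3, without amputation 2 and with the muscle covariate, with log2 values from 0.49 to 0.59 for S100a16 and from 0.48 to 0.63 for S100a13. Unlike the 3 genes above, neither had its lowest amputation value in amputation 3. The RefSeq record of S100a13 overlaps that of S100a1 on the other strand. The strand setting of counting is not given, so some S100a13 reads could belong to S100a1, which was not tested.

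**Figure D2:**
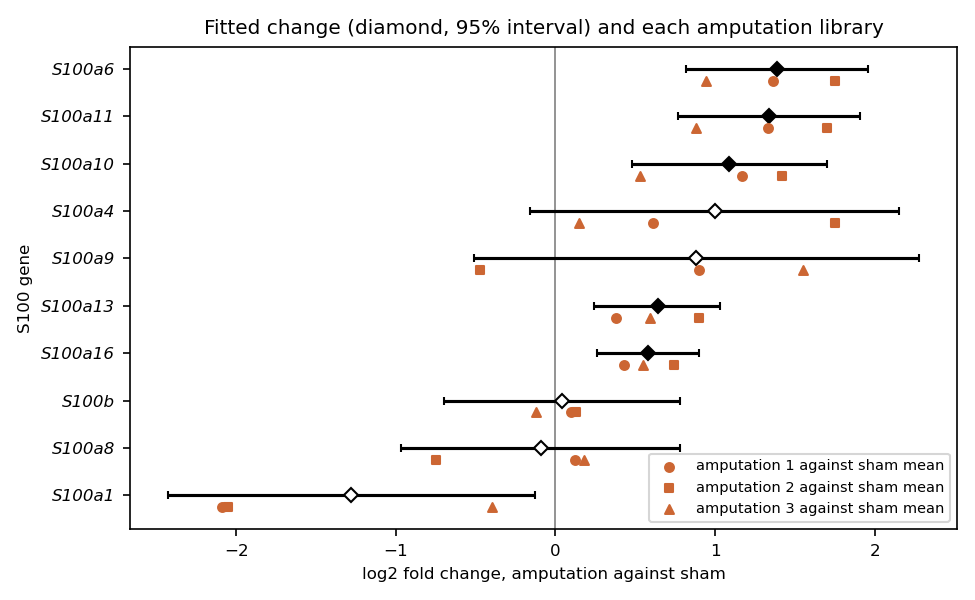
Fitted log2 fold change of amputation against sham for the 10 S100 genes (diamonds with 95% intervals, filled where the adjusted p was under 0.05), with each amputation library set against the mean of the sham libraries (orange symbols). The filled diamonds run from 0.58 for S100a16 to 1.39 for S100a6, and amputation 3 (triangle) is the nearest to 0 for S100a6, S100a11, S100a10, S100a4 and S100a1.

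S100a4 codes for a protein that binds non-muscle myosin and is used as a fibroblast marker. It ran from 34.4 to 74.2 CPM in sham (70.3, 74.2 and 34.4) and from 66.1 to 199.99 CPM after amputation (90.8, 199.99 and 66.1). Amputation 3 lay below sham 1 and 2, so the groups overlapped. The log2 fold change was 0.996 ± 0.48 (95% interval -0.16 to 2.15), and it was not called (adjusted p = 0.147, edgeR, n = 3 per group). It was called with the replicate block (0.91, adjusted p = 0.0423) and without amputation 3 (1.29, adjusted p = 0.0222). With the muscle covariate, whose fit leaned mostly on amputation 3, the value was -0.04, of the opposite sign. The same libraries were low in connective tissue markers: a list of 12 fibroblast genes summed to 5107, 5718 and 3722 CPM in sham 1 to 3 and to 31737, 35496 and 18052 CPM in amputation 1 to 3. Col1a1, a chain of type I collagen, stood at 2150 CPM in sham 3 against 4879 and 5491 in the other sham libraries. The part of these markers in the S100a4 values was not tested. S100a4 shares 302 exon bases on its own strand with the gene model Gm42674, so that some of its reads could belong to that transcript.

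S100a1 had the only negative log2 fold change of a sizeable level. In muscle it binds the ryanodine receptor and the sarcoplasmic calcium pump. It stood at 77.8, 90.4 and 101 CPM in sham and at 21.0, 21.7 and 68.1 CPM after amputation. The groups did not overlap, but amputation 3 lay close to the sham libraries, at -0.40 on the log2 scale against the sham mean, while amputation 1 and 2 stood at -2.09 and -2.05. The fitted log2 value was -1.28 ± 0.48 (95% interval -2.43 to -0.13) and was not called (adjusted p = 0.0821, edgeR, n = 3 per group). Its unadjusted p in edgeR was 0.0341. It was called lower with the replicate block (-1.51, adjusted p = 0.0344) and without amputation 3 (-2.07, adjusted p = 4.19e-05). DESeq2 (-1.30, adjusted p = 0.0194) and limma-voom (-1.50, adjusted p = 0.0450) called it too.

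S100a1 and the muscle list were both lowest in amputation 1 and 2, but differed in size there. The mean log2 CPM of the 30 muscle genes was 10.94, 10.99 and 11.27 in sham 1 to 3 and 7.62, 6.34 and 10.89 in amputation 1 to 3. S100a1 in log2 CPM minus that mean was -4.65, -4.49 and -4.61 in sham and -4.80 in amputation 3, but -3.22 in amputation 1 and -1.89 in amputation 2. In the 2 libraries with little muscle RNA, S100a1 was thus lower by less than the muscle list. With the muscle covariate its log2 value was -0.40, not called (adjusted p = 0.239). Of 11 genes of muscle calcium handling and glycogen use, targets of S100A1 among them, edgeR called 2 lower and 1 higher, with 8 not called (median log2 -1.17). Over all tested genes 12.3% were lower and 20.4% higher. Pln, the calcium pump inhibitor phospholamban, fell by 2.33 ± 0.33 on the log2 scale (adjusted p = 0.00630, edgeR), with the smallest p of the list. The 1 gene called higher carries the symbol Pgm1 in the table (log2 1.21 ± 0.25, adjusted p = 0.0158; not called without sham 1, 2 or 3 or amputation 1, at 1.12 to 1.24). Its identifier is that of the gene RefSeq names Pgm2, on chromosome 5 at 64092919 to 64128355, so it matched the list by an older symbol and is not the phosphoglucomutase of muscle glycogen use that the list meant. Ryr1, the muscle ryanodine receptor, stood at 4796 to 6010 CPM in sham and at 409, 109 and 4728 CPM after amputation. It was not called (log2 -1.61 ± 1.26). Without amputation 3, 10 of the 11 were lower, beside 29.7% of all genes. Leaving out any other single library gave 1 lower, in fits that called 436 to 893 genes lower in all. With the muscle covariate 4 of the 11 were higher, beside 11.9% of all genes, and 2 lower.

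**Figure D3:**
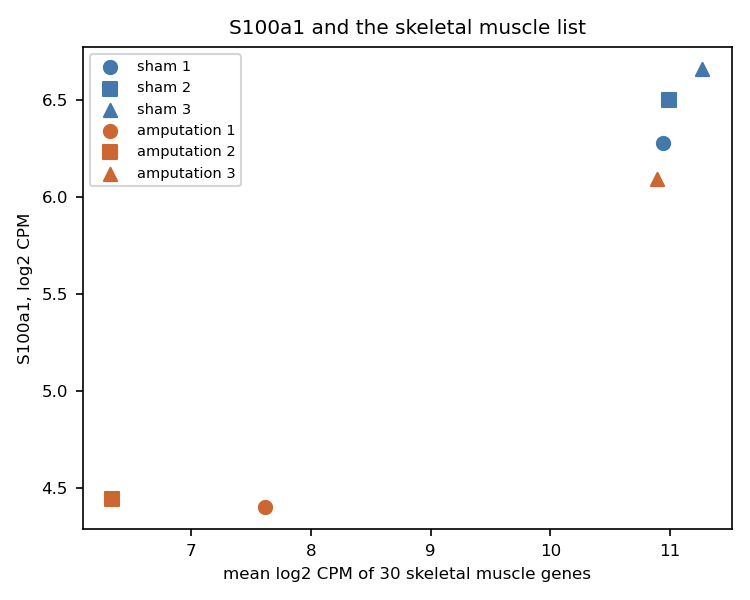
S100a1 in log2 CPM (vertical) against the mean log2 CPM of 30 skeletal muscle fibre genes (horizontal) in each library. The 3 sham libraries and amputation 3 sit together at the upper right, and amputation 1 and 2 lie apart at 4.40 and 4.44 for S100a1 and at 7.62 and 6.34 for the muscle list.

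The genes with the pattern nearest to S100a1 were Uqcrq, Sdhc and Esrra. Uqcrq and Sdhc code for subunits of the respiratory chain, and Esrra for a nuclear receptor of oxidative metabolism. After each gene was centred on its own mean over the 6 libraries, their root mean square differences from S100a1 were 0.038, 0.040 and 0.042 log2 units. For S100a4 the nearest were Mettl24, Htr6 and Ndufa4l2, at 0.148 to 0.179 log2 units. These are descriptions over 6 libraries that fall into few distinct states, and they carry no test.

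S100a8 and S100a9 form calprotectin, the heterodimer that fills the cytosol of neutrophils. Both were close to the low end of the measured range. S100a8 had 37, 25 and 43 counts in sham (1.51, 0.946 and 1.64 CPM) and 46, 24 and 46 after amputation (1.48, 0.810 and 1.54 CPM). Its groups overlapped throughout, with replicate 2 the lowest in each. The log2 fold change was -0.09 ± 0.36, with a 95% interval from -0.97 to 0.78 (adjusted p = 0.853, edgeR, n = 3 per group). The interval reaches nearly 2-fold lower, so these libraries do not show that S100a8 was alike in both groups.

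S100a9 had 34, 14 and 27 counts in sham (1.39, 0.530 and 1.03 CPM) and 57, 21 and 86 after amputation (1.84, 0.709 and 2.89 CPM). Amputation 1 and 3 lay above all sham libraries, and amputation 2 lay below 2 of them. The log2 value of 0.88 ± 0.58 was not called (95% interval -0.51 to 2.28, adjusted p = 0.265, edgeR), nor was it under any of the 17 alternatives. The FPKM ratio of S100a8 to S100a9, which corrects for gene length, was 1.45, 2.39 and 2.13 in sham and 1.08, 1.53 and 0.715 after amputation. The groups overlapped, through sham 1 and amputation 2, but within each replicate number the ratio was lower after amputation. This difference was not tested, and the labels do not say that the numbers pair libraries.

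Of 14 neutrophil markers, 12 stood at 1.68 CPM or less in every library, and Csf3r and Lcn2 made up most of their summed level. Ly6g, the surface antigen that defines mouse neutrophils, had 0, 0 and 3 counts in sham and 0, 0 and 2 after amputation, and the granule gene Camp had 0 to 13 and 0 to 3 counts. Ngp, another granule gene, had 4 to 41 counts in sham and 3 to 9 after amputation. The 14 genes summed to 12.2 to 16.4 CPM in sham and 12.9 to 17.9 CPM after amputation, with 2 or 3 of them at 0 in each library. Of the 5 tested, 1 was higher, beside 20.4% of all tested genes. It was Csf3r (the G-CSF receptor, log2 1.64), at 2.04 to 3.86 CPM in sham and 6.01 to 10.3 CPM after amputation. Lcn2, which codes for the iron-trapping lipocalin and is also made outside neutrophils, stood at 8.25, 7.08 and 5.96 CPM in sham and 4.19, 4.69 and 1.95 CPM after amputation. Its groups did not overlap, and its log2 value of -0.97 ± 0.34 was not called (adjusted p = 0.0696, edgeR). With the replicate block 2 of the list were lower, Lcn2 and the granule gene Ltf, beside 17.3% of all genes. The part of neutrophils in the S100a8 and S100a9 values was not tested. Macrophage markers behaved differently: 11 of 12 were higher, and their sum ran from 335 to 438 CPM in sham and from 994 to 1279 CPM after amputation. Adgre1, which codes for the macrophage antigen F4/80, stood at 13.7 to 18.6 and 54.7 to 75.7 CPM. Skin cells, another source of S100 proteins, left little RNA, with 12 keratinocyte genes at 29.7 to 40.9 CPM in sham and 40.9 to 66.2 CPM after amputation. Krt5, the first of them, had no count in sham 1.

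The genes nearest to S100a8 in pattern were Tbc1d10c, Trim30a and Gsto2, at 0.109 to 0.143 log2 units.

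S100b did not differ detectably between groups. It stood at 12.6, 6.59 and 5.84 CPM in sham and 8.96, 9.11 and 7.65 CPM after amputation. All amputation values fell inside the range of the sham values, and sham 1 was the highest library. The log2 value was 0.04 ± 0.31 (95% interval -0.70 to 0.78, adjusted p = 0.925, edgeR, n = 3 per group). Markers of cell types known to express S100b moved in different directions. The 12 Schwann cell and myelin genes summed to 1367, 732 and 571 CPM in sham 1 to 3 and to 365, 357 and 518 CPM in amputation 1 to 3, with 7 of 12 lower. Their sum was highest in sham 1, as for S100b. With the replicate block 5 of these 12 were lower, beside 17.3% of all genes. With the muscle covariate none of them was, in a fit that called 916 genes lower in all. The 10 chondrocyte genes in the table summed to 415 to 1446 CPM in sham and 3457 to 14405 CPM after amputation (9 higher). All 10 adipocyte genes were lower (8 with the muscle covariate), with sums of 1257 to 2008 and 289 to 525 CPM. Over all tested genes 20.4% were higher and 12.3% lower. The part of each cell type in the S100b level was not tested. The nearest genes in pattern were Dyx1c1, Fzd3 and Ccser1, at 0.111 to 0.136 log2 units.

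The makeup of the family's RNA shifted from S100a1 towards S100a6 and S100a11, as seen on the FPKM scale, which is per gene length. In sham, S100a1 (130, 148 and 158 FPKM), S100a6 (118, 145 and 112) and S100a4 (115, 119 and 53.0) had the highest levels of the 10 genes in most libraries. S100a10 (68.0, 85.6 and 87.4 FPKM) and S100a11 (63.3, 70.0 and 81.7) followed and overlapped each other. S100a16 stood at 17.7 to 20.6 FPKM, S100a13 at 8.89 to 9.34, S100b at 3.39 to 7.75, S100a8 at 2.44 to 4.04 and S100a9 at 1.02 to 2.71. Neighbours among the last 3 overlapped.

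After amputation S100a6 had the highest FPKM in every library (350, 403 and 227). S100a1 took 24.2%, 24.5% and 29.9% of the summed FPKM of the 10 genes in sham 1 to 3, and 3.75%, 2.76% and 14.6% in amputation 1 to 3. S100a6 took 21.0% to 23.9% and 31.4% to 35.1%, and S100a11 took 11.6% to 15.4% and 17.4% to 19.8%. The sums were 534, 605 and 530 FPKM in sham and 997, 1235 and 723 FPKM after amputation. By mean FPKM among all 21878 genes, S100a6 ranked 293 in sham and 82 after amputation, and S100a1 ranked 247 and 707. The calprotectin genes ranked between 9022 and 10698 in both groups.

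**Figure D4:**
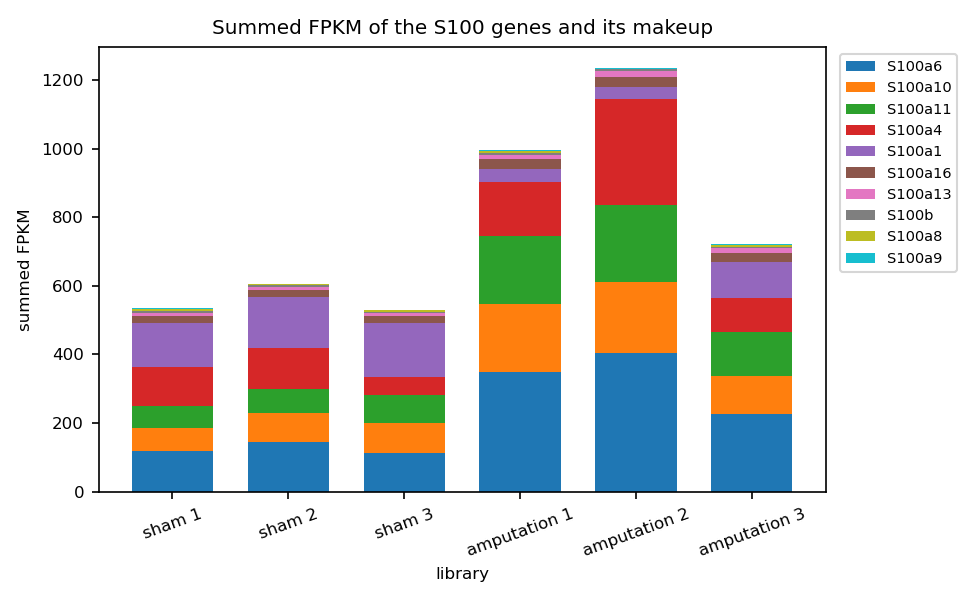
Summed FPKM of the 10 S100 genes in each library, stacked by gene. The bars stand at 530 to 605 FPKM in sham and at 723 to 1235 FPKM after amputation, and the purple segment of S100a1 is thinnest in amputation 1 and 2.

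The annexins, the main intracellular partners of S100A10, S100A11 and S100A6, were measured next to their S100 genes. Of 12 annexin and related genes, edgeR called 6 higher and 1 lower, and 5 not (median log2 0.40). Over all tested genes 20.4% were higher and 12.3% lower. Anxa5, a marker of exposed phosphatidylserine as a purified protein, rose by log2 1.34 ± 0.22, from 125 to 133 CPM in sham to 237 to 403 CPM after amputation. Ahnak2, a large scaffold protein, rose by log2 1.32 ± 0.24. Anxa3 fell by 0.62 ± 0.15 on the log2 scale. Adjusted p-values of these 3 genes were 0.00901, 0.0108 and 0.0249 (edgeR). Anxa3 was not called without sham 1, sham 2 or amputation 2 (log2 -0.58, -0.61 and -0.52) or with the muscle covariate (-0.63, adjusted p = 0.0673), and Ahnak2 not without sham 2 (1.28). The number of annexin genes called higher was 2, 1 and 3 without sham 1, 2 and 3. Those fits called 1566, 1091 and 1359 of all genes higher, against 2968 in the main fit. With the replicate block 2 annexin genes were lower, beside 17.3% of all genes.

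Anxa2, the partner of S100A10, stood at 146, 168 and 163 CPM in sham and 413, 522 and 273 CPM after amputation. It rose by log2 1.34 ± 0.26 (adjusted p = 0.0136, edgeR), beside 1.09 for S100a10. The FPKM ratio of S100a10 to Anxa2 was 0.816, 0.906 and 0.999 in sham and 0.787, 0.742 and 0.765 after amputation. All amputation ratios lay below all sham ratios. Anxa1, the partner of S100A11, rose by log2 1.49 ± 0.28 (adjusted p = 0.0119), and the FPKM ratio of S100a11 to Anxa1 overlapped between groups (0.925, 0.899 and 1.001 in sham, 0.782, 0.850 and 0.962 after amputation). Within each replicate number, which the labels do not give as pairs, both ratios were lower after amputation. This was not tested.

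Plasminogen activation at the cell surface is the system in which S100A10 acts. Of 7 tested genes 4 were higher and none was lower, beside 20.4% and 12.3% of all genes. Without sham 2, 2 of these genes were higher, in a fit that called 1091 genes higher in all, against 2968 in the main fit. Eno1, a glycolytic enzyme that also binds plasminogen, rose by log2 1.30 ± 0.21. Plat and Plaur, the tissue plasminogen activator and the urokinase receptor, also rose, by log2 0.98 ± 0.18 and 1.40 ± 0.29. Adjusted p-values of these 3 genes ran from 0.00872 to 0.0165 (edgeR).

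Of 14 surface receptors and adaptors written down for extracellular S100 proteins, 6 passed as higher, 2 as lower and 6 were not called (median log2 0.61). Over all tested genes 20.4% were higher and 12.3% lower. Without sham 2 none of the 14 was lower, in a fit that called 436 genes lower in all, against 1789 in the main fit. Cd68, a glycoprotein of macrophages, rose by log2 2.27 ± 0.20 and Cd14, a co-receptor of TLR4, by 1.56 ± 0.17. Erbb4 fell by 2.94 ± 0.55 on the log2 scale and was not called without sham 2. Adjusted p-values of the 3 were 0.00318, 0.00387 and 0.0119 (edgeR). The 2 receptors named most often for the family were not called. Ager, which codes for RAGE, was scarce at 0.687 to 1.48 CPM in sham and 1.07 to 1.77 CPM after amputation. Tlr4 stood at 59.5 to 66.1 and 53.7 to 62.9 CPM (log2 -0.11 ± 0.12).

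In the release complex of S100A13, Fgf1 and Sphk1 moved in opposite directions. Fgf1, a growth factor without a signal peptide, fell by 2.16 ± 0.44 on the log2 scale, from 112, 106 and 107 CPM to 18.5, 12.5 and 41.8 CPM. Sphk1, a sphingosine kinase, rose by log2 2.35 ± 0.56, from 3.28 to 4.24 CPM in sham to 22.5, 29.8 and 6.07 CPM after amputation. Adjusted p-values were 0.0147 and 0.0229 (edgeR). Of 5 genes in that list 3 were tested. Fgf1 lost its call without sham 2 (log2 -2.19, adjusted p = 0.0549) or amputation 1 (adjusted p = 0.0573). Sphk1 was not called with limma-voom (2.07), without any 1 of sham 1 to 3, amputation 1 or amputation 2 (1.92 to 2.41), or with the muscle covariate (0.63).

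Among 15 tested intracellular partners, 3 passed as higher, none as lower, and 12 were not called (median log2 -0.05). Over all tested genes 20.4% were higher and 12.3% lower, so the number of partners higher was near that background. Leaving out any 1 library other than amputation 3 gave 1 higher, in fits that called 1091 to 1863 genes higher in all, against 2968 in the main fit. Capza1, an actin-capping subunit, rose by log2 0.95 ± 0.14, and Trp53, the tumour suppressor p53, by 0.48 ± 0.12 (adjusted p = 0.00685 and 0.0261, edgeR). Myh9, the non-muscle myosin heavy chain that S100A4 binds, was the other, at log2 0.99 ± 0.26. Trp53 was not called without any 1 of sham 1 to 3, amputation 1 or amputation 2 (0.38 to 0.51), or with the muscle covariate (0.37, adjusted p = 0.130). Cacybp, the calcyclin-binding protein named after S100A6, stood at 26.3 to 35.0 and 21.8 to 40.4 CPM and was not called. With the replicate block 2 partners were lower, Mapt and Ppp5c, beside 17.3% of all genes. DESeq2, limma-voom, both limma fits on FPKM and the muscle covariate each called 1 lower. Over all genes they called 2739, 2188, 2205, 2182 and 916 lower, in that order. Without amputation 3, 5 partners were higher and 5 lower, beside 28.5% and 29.7% of all genes.

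The other 8 S100 genes of the table had little or no RNA. S100a5 (8 to 24 counts per library) and S100a7a (11 to 34) were tested and not called, at log2 -0.83 ± 0.49 and -0.70 ± 0.41. S100a3 (4 to 17 counts), S100a14 (2 to 9), S100g (0 to 12) and S100a2 (0 or 1) did not pass the filter, and S100z and 9130204L05Rik, now named S100a7l2, had no count in any library. The chromosome 3 interval from S100a1 to S100a10 held 55 genes outside the family, of which 14 had no count and 4 were tested. None of the 4 was called. Sprr3 and Rptn, both genes of the skin barrier, stood at log2 0.61 ± 0.96 and 0.49 ± 1.03, and each had no count in sham 1. Of the 7 fused S100 genes, which join an S100 domain to a long repeat, 2 were tested, Rptn and Tchh (log2 -0.28 ± 0.62), and neither was called.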

How the data were processed

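Total RNA was sequenced after ribosomal RNA removal with a stranded kit, per the labels' protocols. Per the submitters' processing notes, Trimmomatic, HISAT2 and the GRCm38.p6 build were used. The counting program and its strand setting are not given in the sources used here. The deposited table holds whole-number counts per gene, and a second deposited table holds FPKM, which equal these counts divided by gene length and library total (implied length whole within 0.01 bases for 100% of 15164 genes counted in all libraries). A single count stood for 0.0319 to 0.0418 CPM. The closest pair of libraries, sham 1 and 2, had a mean chi-square per gene of 15.0, so none was counted as a duplicate.

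The test used edgeR 4.0.16 in R 4.3.3: filterByExpr (14561 genes tested, 7317 not), TMM scaling, and the quasi-likelihood test of amputation against sham with p-values adjusted by Benjamini-Hochberg across every gene tested (threshold 0.05). The SE of a log2 fold change was taken as its size over the root of the F statistic. limma 3.58.1 and DESeq2 1.42.0 served as alternatives, with 17 alternatives in all. In a test on simulated data of 14477 genes, 97% of 100 genes changed 4-fold and 38% of 100 changed 2-fold were recovered. In it 3 unchanged genes were called. Changed genes were drawn only from levels above those of S100a8 and S100a9. Spread followed the fitted trend, and all libraries of a group had the same means, with none set apart like amputation 3. The simulation thus does not give the recovery or false calls in these libraries, but many 2-fold changes may go uncalled at this size.

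Same-numbered libraries deviated together from their group means (correlations over genes of 0.259, 0.130 and 0.409 for numbers 1 to 3). The numbers were therefore used as a block in an alternative fit, though the labels do not say that they pair libraries. Sham 1 and 2 each correlated nearly as well with the other of amputation 1 and 2 (0.244 and 0.115), so the correlations set only number 3 apart. Sham 3 and amputation 3 also had the largest muscle share of counts in their groups (20.7% and 14.4%). Whether the numbers pair libraries or number 3 shares its composition was not tested.

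The members, gene lists and alternatives were chosen with earlier results of these data known. Named were the 10 members, all other S100 genes, the 2 genes of each partner list with the smallest p and the first in the other direction where a list had calls both ways, the first gene of marker lists (with Camp, Ngp, Scx and Col1a1), and the 3 genes nearest in pattern to S100a1, S100a4, S100a8 and S100b. Anxa1, Anxa2, Ager, Tlr4, Plat, Plaur, Ryr1, Myh9, Cacybp, Csf3r, Lcn2, Ltf, Mapt, Ppp5c and S100a2 were added after values were seen. Some genes that this rule names are not reported here. Of the marker lists, tendon had 7 of 11 genes higher and fibroblast 9 of 12, erythroid had 1 of 6 tested lower (6 with the replicate block) and keratinocyte 1 of 10 higher. The shares over all tested genes were 20.4% higher and 12.3% lower (17.3% lower with the block). Exon overlaps were read from GENCODE M21 and upstream bases from RefSeq's table of GRCm38.p6.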

Additional observations from a re-analysis of the deposited data

How the results depend on the processing

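The number of S100 genes called higher was 5 under 9 of the 17 alternatives, 6 with the replicate block and 2 with the muscle covariate. Leaving out each library in turn gave 1 to 6 genes higher, and 0 to 1 lower. S100a1 was the 1 gene called lower with DESeq2, limma-voom, limma on log2(FPKM + 1) or log2(FPKM + 0.1) and the replicate block. Over all genes, the main fit called 1789 lower, DESeq2 2739, limma-voom 2188, the limma fits on FPKM 2205 and 2182, and the replicate block 2522. The muscle covariate gave 1730 higher and 916 lower, and leaving out a library gave 1091 to 4212 higher and 436 to 4392 lower. Some genes that were not called changed sign. S100a4 was -0.04 with the muscle covariate, where its range over left-out libraries was 0.40 to 1.29. S100a8 was 0.32 and S100b -0.16 with the covariate, and over left-out libraries S100a8 ran from -0.32 to 0.15 and S100b from -0.19 to 0.46. Without 1 library at a time Rptn ran from -0.09 to 0.92 and Tchh from -0.77 to 0.44. Apart from S100a1 and S100a4, the replicate block changed no call of the 10 genes. The cause of these shifts was not tested, and leave-one-out fits also had fewer samples. S100a8 and S100a9 had 14 to 86 counts per library, and the part of depth in their intervals was not tested.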
